A study of Mus musculus with 6 samples.

Results

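Granins and the enzymes that cut neuropeptide precursors were followed through the authors' list of differentially methylated regions in mouse blastocysts. The 10 genes were Vgf, Scg2, Chgb, Chga, Scg3, Scg5, Pcsk1, Pcsk2, Pcsk1n and Cpe, and their regions were all entries, in any cytosine context, listed under one of these names, collapsed by position and context. Of 9707 distinct regions in the list, 12 belonged to them. These regions fell on 5 of the 10 genes, against 17.5% of 21900 protein-coding genes with any listed region. The regions were chosen by the authors' difference in mean methylation and their region statistic, which put them on the list, so these differences are described here and were not tested.

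The embryos were of C57BL/6 background and were collected at embryonic day 4.5, the late blastocyst stage. In the depressed group, 3 fertilised eggs (replicates 1, 3 and 4) had been injected with small RNAs of sperm from stress-induced depressed mice. In the normal group, 3 eggs (replicates 1, 2 and 4) had received the small RNAs of sperm from normal mice. Both groups had RNA at 2 ng/µl, were cultured at 37 °C and were taken about 108 h after injection, and no uninjected embryos were analysed here. How many males gave the sperm is not stated in the labels. Each library came from a single embryo by whole-genome bisulfite sequencing, which reads unmethylated cytosines as thymine. How completely these were converted was not checked here, and an unconverted one would count as methylated. The list gives the authors' mean level per group and 0 values per embryo, so no value below has a spread of its own, the read depth is unknown, and a difference could not be set against the spread between embryos.

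Granins are acidic proteins that neurons and endocrine cells pack into dense-core vesicles, where many of them are cut into peptides. The convertases encoded by Pcsk1 and Pcsk2 cut precursors at pairs of basic residues, and the carboxypeptidase encoded by Cpe trims the basic residues left behind. Scg5 encodes a chaperone of the Pcsk2 enzyme, and Pcsk1n an inhibitor of the Pcsk1 enzyme. In mammals DNA methylation lies mostly at CG sites. Methylation at CHG and CHH sites, where H is any base but G, is scarce outside neurons, oocytes and pluripotent cells.

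At the 5 listed genes the regions were in the CHG and CHH contexts, with 0 regions in CG and 0 higher in CHG. Over all protein-coding genes, 2.51% had a lower and 0.0411% a higher CG region, and 0.735% had a higher CHG region. In the depressed group, methylation was lower at 9 regions, in Vgf, Scg2, Chgb and Pcsk2, and higher at 3, in Pcsk2 and Cpe. Over the 9 lower regions the group mean ran from 0.0560 to 1.63% in depressed-group embryos (median 0.739%), against 5.93 to 74.3% in normal-group embryos (median 24.5%). Over the 3 higher regions it ran from 3.41 to 5.44% in depressed-group embryos, against 0.475 to 1.83% in normal-group embryos. All 5 CHG regions were lower, as were 91.0% of all listed CHG regions. Of the 7 CHH regions 4 were lower, against 20.4% of all listed CHH regions.

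**Figure D1:**
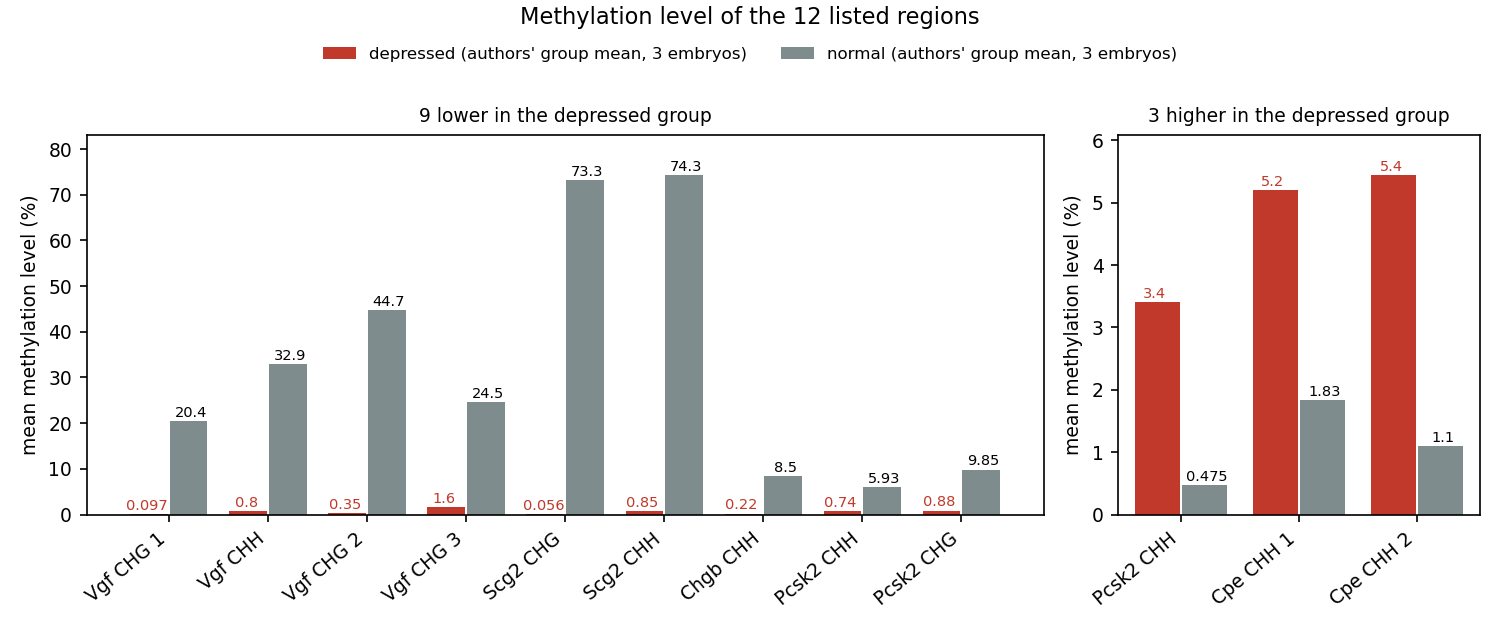
Authors' mean methylation level (%) of each of the 12 regions in the depressed group (red, left bar) and in the normal group (grey, right bar), with lower regions in the left panel and higher ones in the right panel, on separate scales. The depressed bars of the 9 lower regions stay at or under 1.63%, while the normal bars reach 74.3% at Scg2. Regions of 1 gene and context are numbered by position.

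The upstream sequence of genes with a lower region is shown first, because several granin genes are known to respond to cyclic AMP through a promoter element and because the listed regions lie elsewhere. RefSeq promoters (GRCm38.p6, the build mm10) were at hand for 8 of the 10 genes, not for Vgf and Cpe. For Scg3 and Pcsk1 the start used lies inside the RefSeq span, so their stretches are not upstream of the whole gene. In the 250 bases before the start, the cyclic AMP response element TGACGTCA, a palindrome bound by CREB, was found in Scg2, Chgb and Pcsk1, and in 1.92% of 21263 promoter entries of protein-coding genes. Its shorter core TGACG, which the full element contains, was found on either strand in 7 of the 8, and in 20.2% of all. The upstream stretches of the 3 genes with both a lower region and a promoter entry follow, on the gene's strand, with the full element in capitals where it was found.

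Scg2 (chr1:79440027-79440276, minus strand): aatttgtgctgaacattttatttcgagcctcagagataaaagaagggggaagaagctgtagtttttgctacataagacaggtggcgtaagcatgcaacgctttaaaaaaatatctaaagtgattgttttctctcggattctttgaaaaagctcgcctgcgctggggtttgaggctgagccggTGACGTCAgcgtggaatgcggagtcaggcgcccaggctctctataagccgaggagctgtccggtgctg
Chgb (chr2:132781392-132781641, plus strand): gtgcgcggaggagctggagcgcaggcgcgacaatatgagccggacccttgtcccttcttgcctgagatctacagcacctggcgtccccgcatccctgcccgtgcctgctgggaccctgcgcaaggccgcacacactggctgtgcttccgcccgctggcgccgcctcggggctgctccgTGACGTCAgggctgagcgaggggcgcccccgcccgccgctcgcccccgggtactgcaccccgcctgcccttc
Pcsk2 (chr2:143545883-143546132, plus strand): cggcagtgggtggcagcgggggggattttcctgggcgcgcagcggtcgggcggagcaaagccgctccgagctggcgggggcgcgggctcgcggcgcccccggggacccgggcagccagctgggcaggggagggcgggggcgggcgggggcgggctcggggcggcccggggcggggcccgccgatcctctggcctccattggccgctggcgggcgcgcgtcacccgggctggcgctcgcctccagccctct

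The element began 68 bases before the start of Scg2, 72 before Chgb and 78 before a start of Pcsk1, and it was not in these letters for Pcsk2. The stretch held 13 CpG sites at Scg2, 26 at Chgb and 35 at Pcsk2. Of the 8 upstream stretches, 0 overlapped a listed region of any context. The same share over all promoter entries was not computed, so this count is not read as a trait of these genes. Scg2, Chgb and Pcsk2 had their lower regions in the body of the gene, and Pcsk1 had no region.

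Vgf, a granin-like precursor of several secreted neuropeptides (Ensembl ENSMUSG00000037428, mm10 chromosome 5, RefSeq span 137025301 to 137033351), carried 4 of the 12 regions, the most of the 10 genes. Its first CHG region (137031190 to 137031730, exon, 31 cytosines) was at 0.0974% in depressed-group embryos, against 20.4% in normal-group embryos. The second (137031888 to 137032609, exon, 61 cytosines) was at 0.346% in depressed-group embryos, against 44.7% in normal-group embryos. The last (137032768 to 137035389, exon, 3′ UTR and transcript end, 16 cytosines) was at 1.63% in depressed-group embryos, against 24.5% in normal-group embryos. The middle region thus had the highest normal level and the largest difference of the 3, -44.3 percentage points, against -20.3 for the first and -22.9 for the last.

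A CHH region (137031572 to 137035461, exon, 3′ UTR and transcript end, 274 cytosines) ran over all but the first part of the same stretch. Its level was 0.801% in depressed-group embryos, against 32.9% in normal-group embryos, a difference of -32.1 percentage points. The second and last CHG regions lay inside it, and the first shared 159 bp with it. Together the 4 regions covered 4272 bp, at the end of Vgf and beyond.

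Vgf and its neighbour Ap1s1, which encodes a small subunit of the clathrin adaptor of the trans-Golgi network, end 1641 bp apart. The CHH region and the last CHG region spanned that gap, and the list names both genes for them, with a transcript end and a 3′ UTR of each. Of the 3890 bp of the CHH region, 1780 lay in the RefSeq span of Vgf, 1641 between the genes and 469 in Ap1s1. Of the 2622 bp of the last CHG region, 584 lay in Vgf, 1641 between the genes and 397 in Ap1s1. The other CHG regions at Vgf carried no entry for Ap1s1, and Ap1s1 had no region of its own.

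The list counted few cytosines in the wide regions for their length. Whether it counts every cytosine of the sequence, or only those the authors used, is not stated. The last CHG region of Vgf had 6.10 counted CHG cytosines per kb, against 84.5 in the second and 57.3 in the first. The median was 83.3 over all lower CHG regions. The CHH region had 70.4 counted CHH cytosines per kb, against a median of 212 over all lower CHH regions. Which of the positions inside carried the signal is not in the list, so the levels over the gap between the genes cannot be read apart from those over Vgf. All 4 regions touched a CpG island, and SINE repeats (RSINE1, ID_B1 and PB1D10) were listed in the 2 wide ones.

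**Figure D2:**
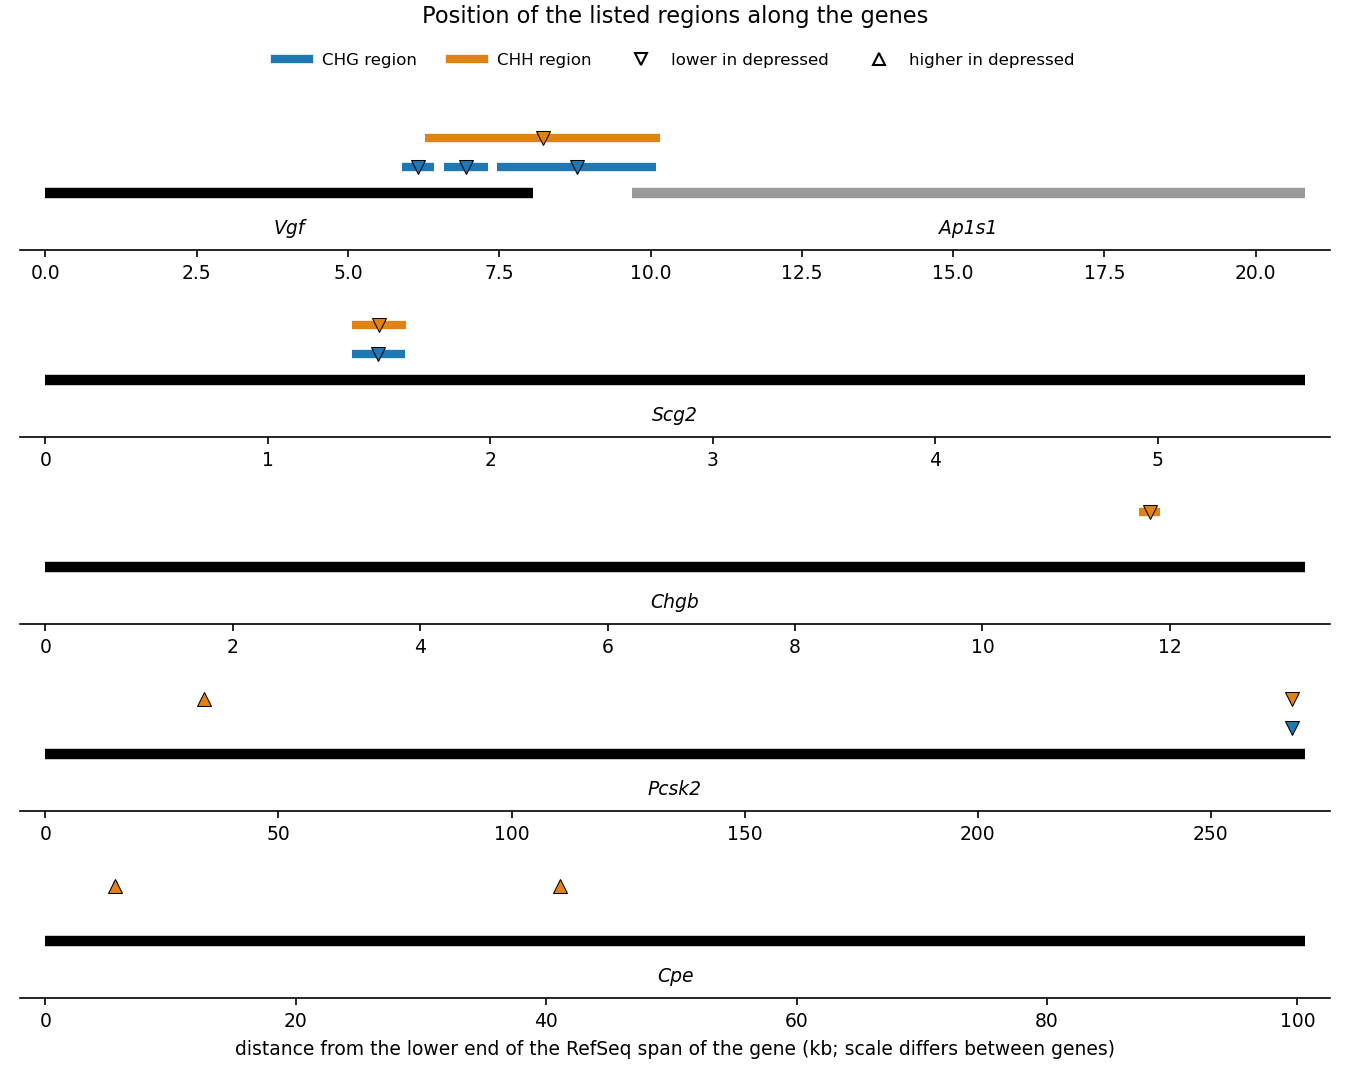
Position of each listed region on the 5 genes, in kb from the lower end of the gene's RefSeq span (black; Ap1s1 in grey), with CHG regions in blue, CHH regions in orange, and a triangle pointing down for lower and up for higher in the depressed group. The regions of Vgf reach across the 1641 bp gap into Ap1s1, and the lower regions of Chgb and Pcsk2 sit near the upper end of the span, which is the 3′ end on the plus strand.

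Scg2, the granin precursor of secretoneurin (ENSMUSG00000050711, chromosome 1, RefSeq span 79434366 to 79440026, minus strand), had the largest differences of the 10 genes. Its CHG region (79435743 to 79435981, exon and intron, 17 cytosines) was at 0.0560% in depressed-group embryos, against 73.3% in normal-group embryos. Its CHH region (79435744 to 79435987, 39 cytosines) was at 0.854% in depressed-group embryos, against 74.3% in normal-group embryos. Both contexts marked the same 238 bp, with starts 1 bp and ends 6 bp apart, and their normal levels were close. The 2 differences, -73.2 and -73.4 percentage points, ranked 38 of 1715 lower CHG regions and 26 of 1415 lower CHH regions. The stretch lay 4039 bp or more after the start of the gene and 1377 bp before its end.

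Chgb, a core granin of dense-core vesicles (ENSMUSG00000027350, chromosome 2, RefSeq span 132781642 to 132795079), had 1 CHH region (132793316 to 132793537, exon, 52 cytosines) at 0.216% in depressed-group embryos, against 8.50% in normal-group embryos. No CHG region overlapped it, the only lower region of the 9 with no partner in another context. It lay 11674 bp after the start of the gene and 1542 bp before its end. Its difference of -8.28 percentage points ranked 1173 of 1415, and its normal level stood below the median of 24.9% over all lower CHH regions.

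Chga, the granin used as a general endocrine marker, and Scg3, a granin that binds Chga in the secretory granule, had 0 regions. The nearest listed region lay 124.7 kb from Chga and 70.0 kb from Scg3. Since the list holds only the regions the authors called and no coverage, a gene without a region is not shown to have equal levels in the groups.

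Among the processing enzymes, Pcsk2 (ENSMUSG00000027419, chromosome 2, RefSeq span 143546133 to 143816284, plus strand) had regions of both directions. Near its end, a CHH region in an exon (143813549 to 143813755, 67 cytosines) was at 0.739% in depressed-group embryos, against 5.93% in normal-group embryos. A CHG region inside it (143813586 to 143813716, 21 cytosines) was at 0.881% in depressed-group embryos, against 9.85% in normal-group embryos. This exonic stretch lay 267416 bp after the start of the gene and 2529 bp before its end. In an intron 33958 bp after the start, a CHH region (143580091 to 143580277, 88 cytosines) was at 3.41% in depressed-group embryos, against 0.475% in normal-group embryos, and thus higher by 2.94 percentage points.

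Cpe (ENSMUSG00000037852, chromosome 8, RefSeq span 64592542 to 64693109) had 2 regions, both CHH and both higher in the depressed group. The first (64597911 to 64598321, intron and promoter, 253 cytosines) was at 5.21% in depressed-group embryos, against 1.83% in normal-group embryos. With the strand of Cpe not at hand, this region is placed by the ends of the RefSeq span only. It lay 5369 bp inside the lower end and 94788 bp from the upper end. Its statistic, which adds up along a region, ranked 82 of 5528 higher CHH regions while its difference of 3.38 percentage points ranked 3245, below the median difference of 3.81 over all of them. The second (64633537 to 64633700, intron, 87 cytosines) touched a retroviral repeat, RLTR51A_Mm, and was at 5.44% in depressed-group embryos, against 1.10% in normal-group embryos.

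Pcsk1, its inhibitor gene Pcsk1n and the chaperone gene Scg5 had 0 regions in any context. The nearest listed regions lay 916.6 kb from Pcsk1, 121.7 kb from Pcsk1n and 218.3 kb from Scg5. The spans of the 5 genes without a region ran from 4.59 kb (Pcsk1n) to 52.8 kb (Scg5), and those of the 5 with one from 5.66 kb (Scg2) to 270.2 kb (Pcsk2).

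All 9 lower regions had an exon entry, and 75.3% of 3130 lower CHG or CHH regions in the list had an exon or UTR entry. All 3 higher regions lay in introns with no exon entry, and 2.23% of 5528 higher CHH regions in the list had an exon or UTR entry. Of the 9 lower regions 8 overlapped a region of another context, against 51.9% of all lower non-CG regions, a share that counts CG partners and partners of either direction. At these 8 the partner was of the other non-CG context and lower too. The 8 lay in Vgf, Scg2 and Pcsk2 only and were partners of one another, so each overlap was counted from both sides. The share over the list counts overlaps between non-CG regions in the same way. The 3 higher regions overlapped none. Nothing particular to granin genes is read from these counts. The smallest differences were 5.19 percentage points among their lower CHH regions, 8.97 among lower CHG and 2.94 among higher CHH, while the list as a whole went down to 2.17, 2.70 and 2.00 in the same classes.

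**Figure D3:**
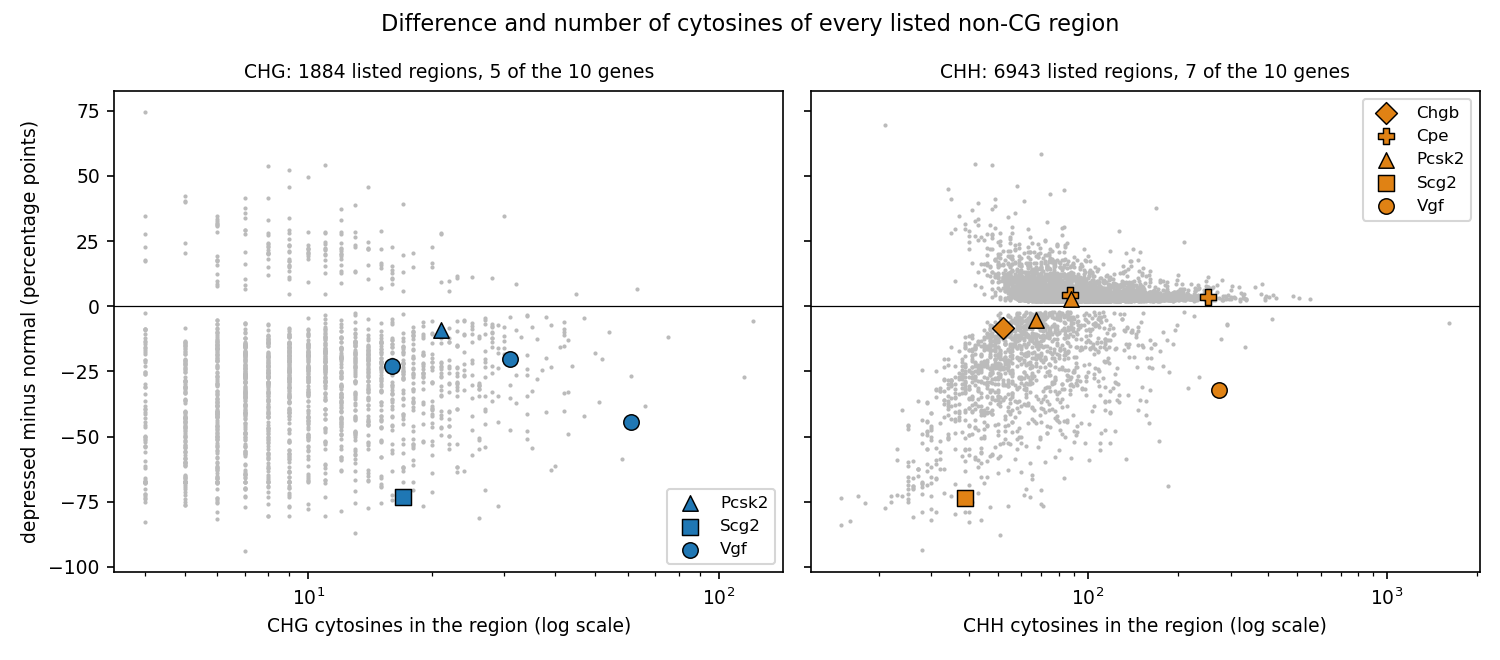
Difference between the groups (depressed minus normal, percentage points) against the number of cytosines in the region (log scale), for all 1884 CHG regions (left) and all 6943 CHH regions (right) in grey, with the regions of the granin and processing genes as coloured symbols. Scg2 sits near the lower edge at -73.2 and -73.4 percentage points, while the CHH region of Vgf lies to the right at 274 cytosines and -32.1 percentage points, with the first Cpe region at 253 cytosines above the zero line.

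Within the list, the regions of Vgf differed in rank. The CHH region of Vgf ranked 3 of 1415 lower CHH regions by the size of its statistic and 11 by length, but 404 by difference. Its second CHG region ranked 4 of 1715 by statistic and 473 by difference, while its first and last CHG regions ranked 112 and 548 by statistic. By statistic, the CHH region of Scg2 ranked 341, that of Pcsk2 801 and that of Chgb 1229. Ordered by normal level, the lower regions ran from both Scg2 regions through the 4 of Vgf to Pcsk2 CHG, Chgb CHH and Pcsk2 CHH, and with no values per embryo no 2 neighbours in that order could be told apart.

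By the rule for likeness, genes were ordered by their strongest lower statistic in each context. Vgf was number 5 of 1431 genes in CHG, between Trim8 (1.49% in depressed-group embryos, against 28.2% in normal-group embryos) and Map1a (0.468% in the depressed and 38.9% in the normal embryos). In CHH it was number 3 of 1213, tied with Ap1s1 by their shared region and next to Hpcal4 (depressed 0.708%, normal 52.5%) and Cfl1 (depressed 0.312%, normal 88.0%). Below Cfl1 came Unc13a (depressed 71.3%, normal 87.2%). The mitochondrial genes mt-Atp6, mt-Atp8 and mt-Co1 followed, with the same levels (depressed 0.889%, normal 5.89%) and the same statistic. These values were identical to the last digit, as for Vgf and Ap1s1, and are read as 1 region named for all 3. Scg2 came at number 93 in CHG and 331 in CHH, Pcsk2 at 395 and 727, and Chgb at 1062 in CHH. This likeness concerns the statistic over 1 region per gene only.

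Other genes of the same secretory route were few among precursors and more frequent among enzymes and vesicle proteins. Of 30 neuropeptide precursor and related secreted factor genes, 0 had a CHG or CHH region. Of 42 other processing and dense-core vesicle genes, 7 had a lower CHG region, 7 a lower CHH region and 9 a higher CHH region. The 10 granin and processing genes had 3, 4 and 2, and the shares over all protein-coding genes were 6.24% for lower CHG, 5.28% for lower CHH and 8.85% for higher CHH. A lower CG region was listed for 0 of the 10, for Prep among the 42 and for Nxph4 and Igf1 among the 30, against 2.51% of all protein-coding genes. A region of any kind was listed for 17 of the 72 related genes in both lists (23.6%), against 17.5% of all protein-coding genes. No adjustment for gene length was made in these shares.

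Sort1, which encodes the sorting receptor sortilin, had lower regions over an exon and 3′ UTR and a higher intronic CHH region (depressed 2.72%, normal 0.695%). Its lower CHH region was at 0.628% in depressed-group embryos, against 42.5% in normal-group embryos, and the larger of its 2 lower CHG regions at 0.311% (depressed) and 42.5% (normal). Pam, which encodes the enzyme that amidates peptide ends, had 5 lower regions, among them a 3′ UTR CHH region at 0.359% in depressed-group embryos, against 36.8% in normal-group embryos, and a higher intronic one at 10.3% (depressed) and 3.83% (normal). Qpct, the glutaminyl cyclase gene, had lower CHH levels in an intron of 0.719% in depressed-group embryos, against 5.62% in normal-group embryos.

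Vesicle genes had regions of both directions too. Ptprn2, which encodes a phosphatase-like protein of the vesicle membrane, was lower in an exonic CHG region (0.0587% in depressed-group embryos, against 67.6% in normal-group embryos) and higher in 3 intronic CHH regions. Its relative Ptprn had a lower exonic CHH region (depressed 0.813%, normal 10.8%). Cadps2, a priming factor of dense-core vesicles, had 2 higher intronic CHH regions, the stronger at 8.58% (depressed) and 0.481% (normal). The convertase gene Pcsk5 had 2 as well, the one with the larger difference at 9.98% (depressed) and 0.413% (normal). Pcsk6, another convertase gene, had 1 at 3.88% (depressed) and 1.29% (normal), and Vps13a, a lipid transfer protein gene, 1 at 2.73% (depressed) and 0.467% (normal). In all, the 14 higher non-CG regions at these genes had 0 exon or UTR entries, and 7 of the 18 lower ones had one. Intronic regions of Ica1, Syt7, Qpct, Rab27b, Pam and Cadps made up the rest.

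**Figure D4:**
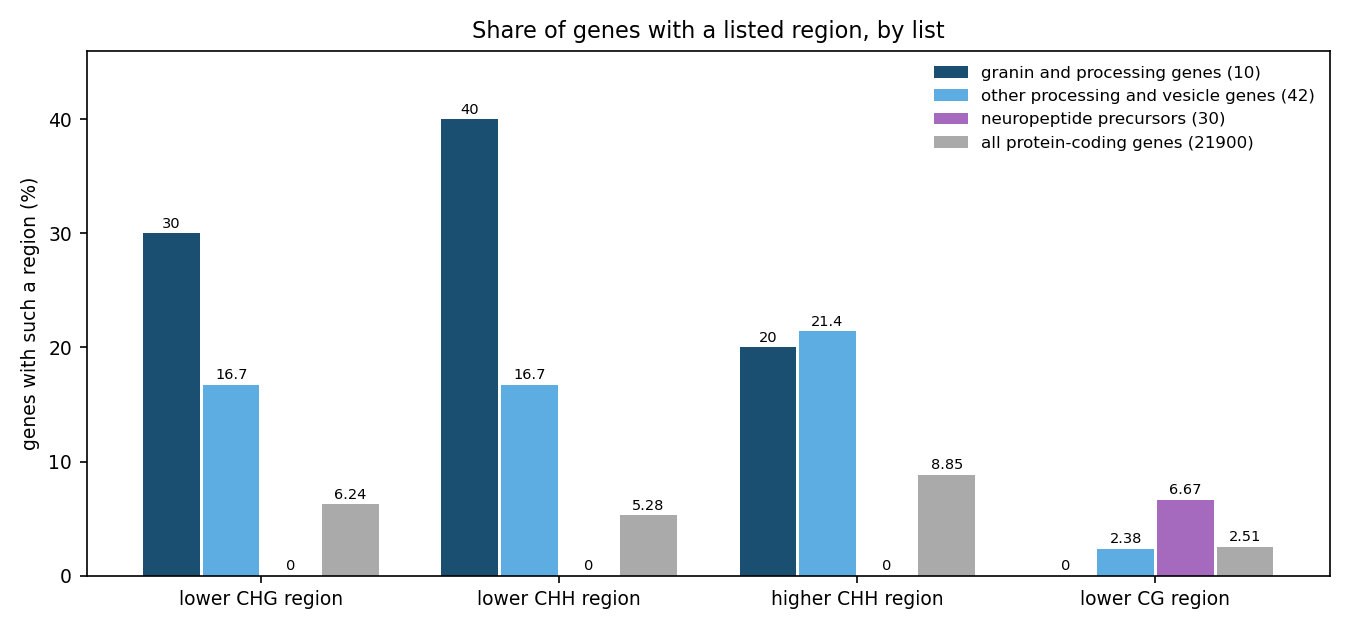
Share of genes (%) with a listed region of each kind, for the 10 granin and processing genes, 42 other processing and vesicle genes, 30 neuropeptide precursors and related factors, and all 21900 protein-coding genes. Neuropeptide precursors are at 0% in the 3 non-CG classes drawn, while the background is 6.24, 5.28 and 8.85%.

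Genes of other cell types that carry listed regions are given beside these counts. A lower CHH region was listed for 6 of 12 neuron markers, 3 of 8 astrocyte markers and 1 of 8 oligodendrocyte markers. Among blastocyst markers it was listed for 1 of 8 of epiblast, 0 of 5 of primitive endoderm and 2 of 7 of trophectoderm, and for 0 of 6 endocrine markers. A lower CHG region was listed for 4 of 12, 2 of 8, 2 of 8, 1 of 8, 0 of 5, 1 of 7 and 0 of 6 of them in the same order. The part of cell make-up in the levels at Vgf and Scg2 was not tested, and the labelled tissue could not be checked by expression, since only methylation was measured.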

How the data were processed

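Whole-genome bisulfite libraries of 6 single mouse embryos were analysed, 3 per group (depressed, normal), by the titles in the labels. Trim Galore 0.3.3, Bismark and SAMtools with mm10 are named in the submitters' processing notes; how regions were called, thresholded and filtered on coverage is not stated in them. Per the file headers, the one deposited table gives each region's mean methylation level per group as a fraction, their difference and a region statistic (both taken as a score), and its length and number of cytosines. The 18732 entries were collapsed to 9707 regions with pandas 2.3.3, and fractions were multiplied by 100 to percent. The difference equalled depressed minus normal in all 9707. Depth is unknown, so no interval or test was computed. Overlaps needed 1 bp. Gene spans, protein-coding genes and promoters came from the RefSeq tables for GRCm38.p6. The collapse and overlap steps were tested on simulated data. The 10 genes, the other gene lists and the promoter motif were chosen with earlier results of these data known. Named genes were the 10, Ap1s1, those next to Vgf in statistic, and of the related genes with regions the 12 with the strongest statistics, not all with values; Rab27b, Prep, Nxph4 and Igf1 were added after their values were seen.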

Additional observations from a re-analysis of the deposited data

How the results depend on the processing

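No paired analysis was possible because the deposited table holds group means only; for the same reason no replicate could be left out and no coverage minimum set. Restricting the list to differences of at least 20 percentage points left 2 of the 5 genes (Vgf and Scg2), 6 of 12 regions, 0 of 3 higher regions and 8 of the 17 related genes with a region. The 3 higher regions differed by at most 4.34 percentage points, so that setting could only drop them. Requiring a statistic at or above the median of the context left 1 higher region, the first of Cpe, and 10 related genes. With exon or UTR entries only, 4 related genes and 0 higher regions remained. The latter was fixed in advance, because all 3 higher regions lay in introns with no exon entry. With at least 20 cytosines, 5 of the 8 regions that overlapped another context remained. Leaving out regions named also for Ap1s1 left 10 of 12 regions, and requiring a region within 10 kb of the RefSeq gene left 12. The other planned settings kept the counts within 1.5 times. Each setting can only remove regions, and the unknown depth limits every level. The share of the whole list kept under each setting is not given, so no loss is read as particular to these genes.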

Other observations

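Listed regions also lay within 50 kb of 2 of the genes without being named for them, a window set with the values known. Past the end of Pcsk2, 16.1 kb away, a CHH region in an intron of Bfsp1 with a SINE repeat was at 84.1% in depressed-group embryos, against 97.0% in normal-group embryos, and 21.5 kb away another was at 4.54% in depressed-group embryos, against 0.420% in normal-group embryos. Beside Cpe, a CHH region over the 3′ UTR of Msmo1, a sterol synthesis gene, 25.2 kb away, was at 0.525% in depressed-group embryos, against 41.2% in normal-group embryos. On the other side of Cpe, 38.4 kb away, a CHH region listed under a repeat was at 3.29% in depressed-group embryos, against 0.886% in normal-group embryos. The other 8 genes had 0 such regions. Pcsk2 and Cpe have the longest spans of the list, 270.2 and 100.6 kb, so their windows were the widest. The same share over all genes was not computed, so this count is not read as a trait of these genes.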
